A study of Arabidopsis thaliana with 34 samples.

Results

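The zones flanking the pericentromeres are the 8 blocks of 1 Mb that lie next to the heterochromatic centre of each Arabidopsis chromosome, at 11-12 and 18-19 Mb of chromosome 1, 7-8 Mb of chromosome 2, 10-11 and 17-18 Mb of chromosome 3, 6-7 Mb of chromosome 4, and 8-9 and 16-17 Mb of chromosome 5 (build TAIR10). A ChIP-seq peak was counted in a zone when its midpoint fell inside it, and 18739 of the 328993 nuclear peaks in 18 lists did so. The zones hold 6.71% of the nuclear genome and 5.70% of the peaks, whereas the 30 Mb of pericentromere hold 64.8% of the peaks. There was 1 peak list per library and 2 libraries per group. NRPE1, the largest subunit of the plant RNA polymerase Pol V, was immunoprecipitated with a native antibody from h1 (the h1.1-1/h1.2-1 mutant, which carries T-DNA insertions in both main linker histone genes), from ZF108-DMS3 plants, and from wild-type Col-0 (WT). The ZF108-DMS3 plants are a homozygous transgenic line in the Col-0 background that expresses the RdDM factor DMS3 joined to 3xFLAG and an artificial zinc finger. Linker histone H1 was immunoprecipitated from nrpe1 (nrpe1-11), from ZF108-DMS3 and from WT, and the histone mark H3K9me2 from h1 and from WT. The methylation reader SUVH1, tagged with 3xFLAG, was immunoprecipitated from h1 alone, so SUVH1 has no WT list for comparison here. The study's methods describe pooled seedlings of 10 to 12 days, whereas the sample labels name floral tissue.

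RNA-directed DNA methylation (RdDM) is the plant pathway in which Pol V transcribes silenced loci, and small RNAs bound to AGO4 guide the methyltransferase DRM2 to that nascent transcript. In WT plants it acts mostly on short transposable elements and on the edges of long ones, which are scattered among genes. Long elements of the pericentromere carry H3K9me2 and are methylated mainly by CMT2 and CMT3. Linker histone H1 binds the DNA between nucleosomes and is most abundant in such compact heterochromatin. The zones are the stretch where this heterochromatin gives way to gene-rich arm, and so hold both kinds of sequence next to each other.

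The annotation of the zones was intermediate in this sense. They hold 1882 protein-coding genes, or 235 per Mb, against 106 per Mb in the pericentromeres and 276 per Mb in the arms. They hold 204 genes that RefSeq classes as pseudogenes, a class that in Arabidopsis includes many transposable element genes, or 25.5 per Mb against 124 and 11.4 per Mb. In every list except replicate 1 of NRPE1 in ZF108-DMS3, the share of bases under peaks in the zones lay between that of the pericentromeres and that of the arms.

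Some libraries stood apart before any comparison was made. For NRPE1 the overlap of the libraries in the zones, as bases in both lists over bases in either, was 0.882 in h1, 0.334 in ZF108-DMS3 and 0.737 in WT. For H1 the overlap was 0.346 between the nrpe1 libraries, 0.318 between the ZF108-DMS3 libraries and 0.279 between the WT libraries, within the range of 0.274 to 0.350 found between libraries of different genotypes. For H3K9me2 in WT, replicate 1 covered 0.906% of the zones and replicate 2 covered 2.24%. The lists hold between 6813 and 25522 nuclear peaks, and the read depth behind them is unknown.

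The sequences at NRPE1 summits show what the loci discussed below look like. Each line gives 151 bases centred on the summit in 1 library, 5′ to 3′ on the plus strand, read from the RefSeq TAIR10.1 genome, with every CG dinucleotide in capitals because CG density is compared between classes below. The lines cover the 3 strongest regions with a peak in both h1 lists and in neither WT list, the 3 strongest with the opposite pattern, and the strongest region with a peak in all 6 NRPE1 lists.
h1, not WT, chr5:16600955-16601105 (AT5G41490): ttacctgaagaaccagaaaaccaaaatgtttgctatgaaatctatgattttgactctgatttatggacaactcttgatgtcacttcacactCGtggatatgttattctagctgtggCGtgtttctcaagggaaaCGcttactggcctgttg
h1, not WT, chr5:16602798-16602948 (AT5G41494): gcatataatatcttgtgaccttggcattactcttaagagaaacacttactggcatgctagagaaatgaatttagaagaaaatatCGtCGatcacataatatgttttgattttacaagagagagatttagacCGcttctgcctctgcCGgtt
h1, not WT, chr3:17619050-17619200 (ABCA6): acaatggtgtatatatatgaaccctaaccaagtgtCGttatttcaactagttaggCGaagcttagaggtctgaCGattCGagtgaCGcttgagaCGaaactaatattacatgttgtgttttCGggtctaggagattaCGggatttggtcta
WT, not h1, chr4:6879605-6879755 (intergenic): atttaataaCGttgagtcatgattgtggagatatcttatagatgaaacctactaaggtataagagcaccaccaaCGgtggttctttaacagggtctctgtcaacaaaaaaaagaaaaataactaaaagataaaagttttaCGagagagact
WT, not h1, chr3:17147318-17147468 (intergenic): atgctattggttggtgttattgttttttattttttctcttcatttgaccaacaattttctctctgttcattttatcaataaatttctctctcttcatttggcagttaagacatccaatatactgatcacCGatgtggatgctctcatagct
WT, not h1, chr5:8187283-8187433 (intergenic): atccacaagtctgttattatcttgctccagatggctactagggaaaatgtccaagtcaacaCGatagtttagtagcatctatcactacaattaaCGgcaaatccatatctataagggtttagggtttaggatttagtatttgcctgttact
all 6 lists, chr5:8404962-8405112 (intergenic): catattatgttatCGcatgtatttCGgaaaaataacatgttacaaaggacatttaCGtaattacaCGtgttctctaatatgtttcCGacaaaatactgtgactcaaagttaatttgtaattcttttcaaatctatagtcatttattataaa
The h1 windows held 3, 4 and 8 CG dinucleotides, and the WT windows held 3, 1 and 2. The window shared by all 6 lists held 5.

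In h1, NRPE1 occupied the zones in fewer but wider peaks than in WT, and over more bases. The h1 lists held 1420 and 1515 peaks in the zones, against 1788 and 1771 in the WT lists, a mean difference of -312 peaks. Their median width was 602.5 and 545 bp in h1, against 480 and 531 bp in WT, a difference of 68.25 bp. The bases under peaks came to 17.4% and 16.5% of the zones in h1, against 13.5% and 15.0% in WT, so that the h1 mean was 1.19 times the WT mean (16.9% ± 0.646 and 14.2% ± 1.02, SD, n = 2 each). For all 3 measures the libraries of h1 and WT did not overlap, although their widths overlapped when peaks were held to a −log10 q of at least 3 (difference 49.75 bp) and in the outer 0.5 Mb of the zones (58.5 bp). With 2 libraries in each group the exact two-sided permutation test gave p = 0.333, the smallest it can give. None of the group comparisons can therefore pass a threshold of 0.05. The study describes the NRPE1 libraries of WT and h1 as 2 biological replicates, and the labels do not say whether their plants were grown separately.

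Long peaks were more frequent in h1. Its lists held 141 and 128 zone peaks over 2 kb, against 33 and 46 in the WT lists. Such peaks held 39.0% and 35.7% of the covered bases in h1, against 8.16% and 9.93% in WT. The widest zone peak was 15292 and 15681 bp in h1, against 5110 and 3767 bp in WT. The count of peaks over 2 kb was examined after the widths had been seen, and no such count is given here outside the zones. In the pericentromeres the median NRPE1 peak width was 547 and 487 bp in h1, against 306 and 309 bp in WT. In the arms it was 589 and 524.5 bp in h1, against 542 and 553 bp in WT.

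**Figure D1:**
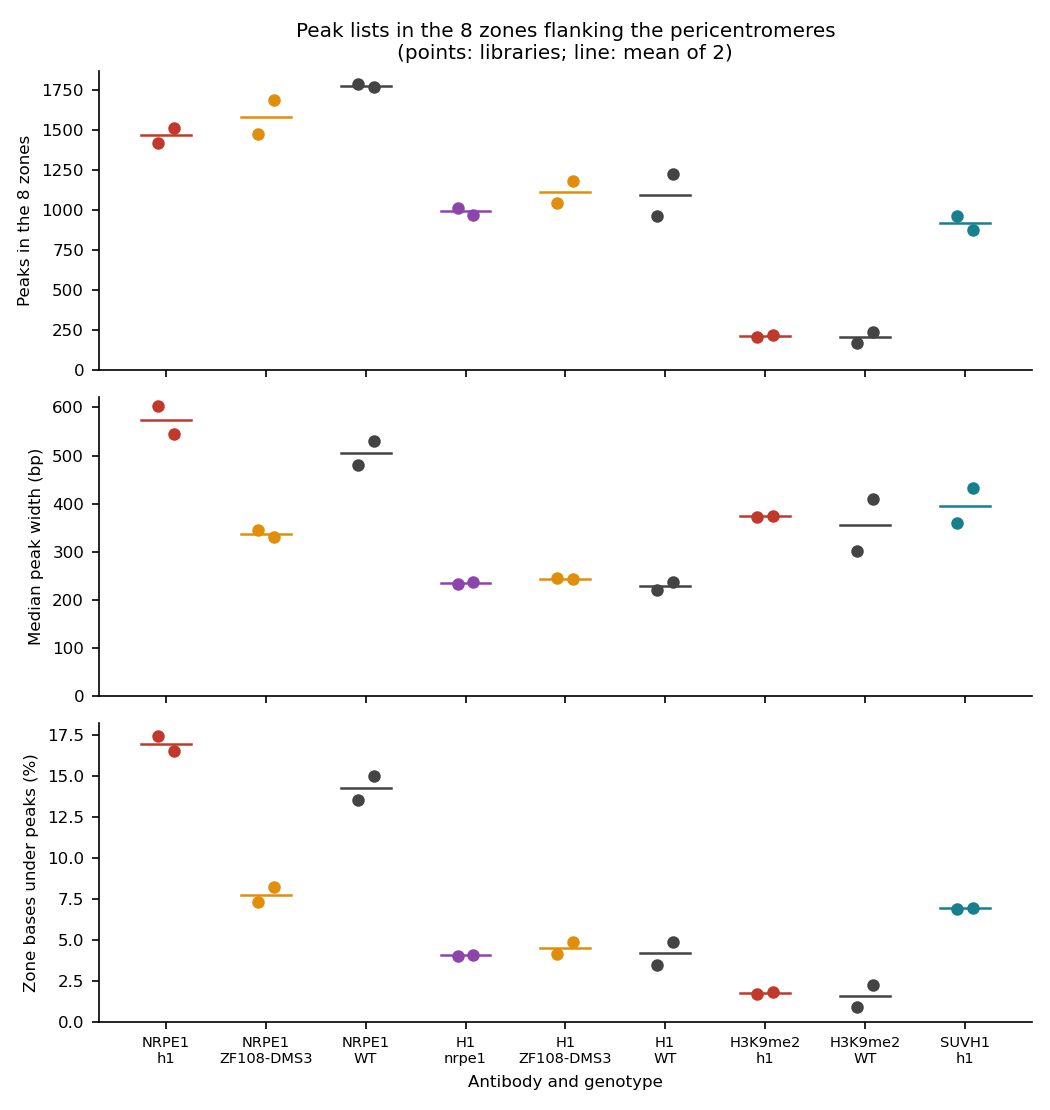
Number of zone peaks, median peak width in bp and percent of zone bases under peaks for each of the 18 libraries, by antibody and genotype (points are libraries, lines the mean of 2). NRPE1 peaks are fewer and wider in h1 than in WT, and NRPE1 covers 16.5% to 17.4% of the zones in h1 and 13.5% to 15.0% in WT, while the WT libraries of H1 and H3K9me2 span most values of their antibody.

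The change was smaller in the zones than in the pericentromeres and larger than in the arms. In the pericentromeres NRPE1 peaks covered 52.5% and 48.7% of bases in h1, against 26.0% and 25.7% in WT. In the arms they covered 6.84% and 6.43% in h1, against 5.80% and 6.09% in WT. The change in percent covered was 22.1 points smaller in the zones than in the pericentromeres and 2.00 points larger than in the arms (exact permutation test on the per-library difference, p = 0.333 for each, the smallest possible). As a ratio, pericentromere over zone was 3.02 and 2.96 in h1, against 1.92 and 1.72 in WT. Zone over arm moved little by this measure, at 2.54 and 2.56 in h1, against 2.33 and 2.46 in WT.

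The zones were not uniform inside. The 0.5 Mb next to the pericentromere had 20.9% and 19.8% of its bases under NRPE1 peaks in h1, against 15.8% and 17.4% in WT. The outer 0.5 Mb had 13.8% and 13.1% in h1, against 11.3% and 12.5% in WT. In 100 kb steps over the 8 borders pooled, the innermost step of the zones had 25.7% and 24.6% in h1, against 18.6% and 20.3% in WT. The outermost step had 14.1% and 13.2% in h1, against 10.97% and 12.1% in WT. The h1 libraries thus lay above the WT libraries at both ends, with a wider gap at the pericentromere.

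**Figure D2:**
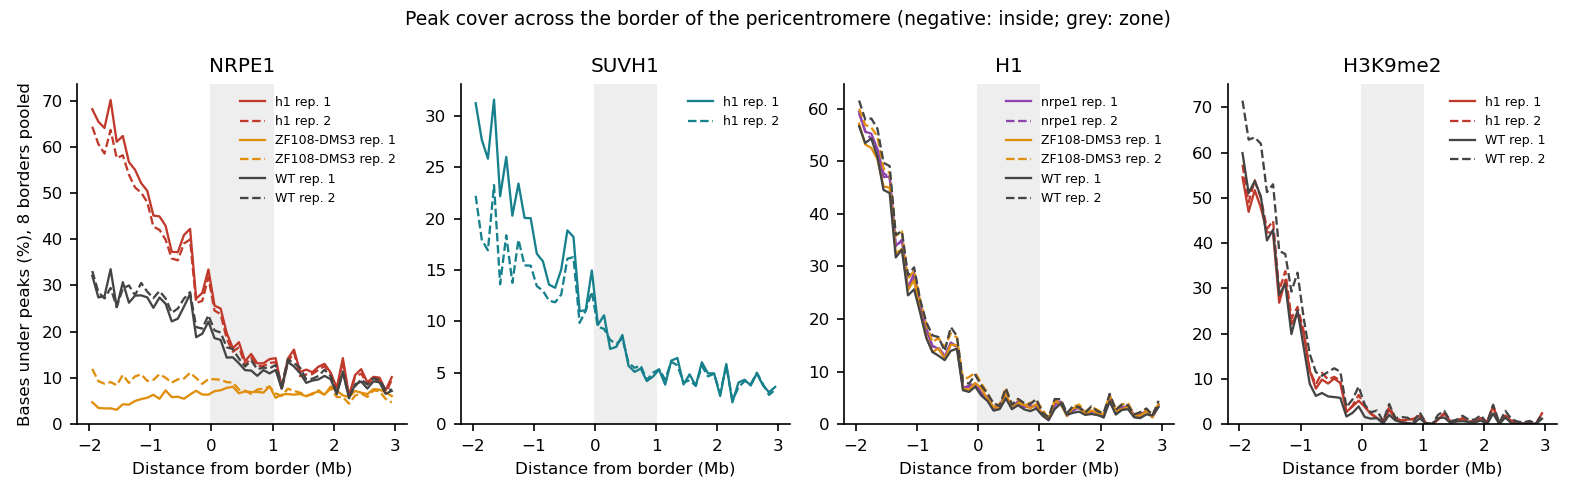
Percent of bases under peaks in 100 kb steps against distance from the pericentromere border in Mb (negative inside it, zone in grey), 8 borders pooled, 1 line per library, by antibody. In the innermost step of the zone NRPE1 covers 25.7% and 24.6% in h1, 7.12% and 9.70% in ZF108-DMS3, and 18.6% and 20.3% in WT.

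All 8 zones had fewer NRPE1 peaks in both h1 libraries than in both WT libraries, where 62.9% of the 116 windows of 1 Mb in the nuclear genome did so. Percent covered was higher in both h1 libraries in 7 of 8 zones, against 68.1% of all windows, and median width in 3 of 8, against 41.4% of all windows, with the other zones overlapping. The largest loss of peaks was in the 10-11 Mb zone of chromosome 3, with 238 and 245 peaks in h1 and 304 and 301 in WT. The largest gain in cover was in the 6-7 Mb zone of chromosome 4, with 25.2% and 23.8% in h1 and 18.9% and 21.3% in WT. The smallest was in the 8-9 Mb zone of chromosome 5, where the groups overlapped (14.4% and 13.5% in h1, 12.5% and 13.5% in WT). The 16-17 Mb zone of chromosome 5 had the lowest NRPE1 cover in every genotype, at 9.54% and 9.04% in h1, 6.38% and 5.71% in ZF108-DMS3, and 7.75% and 8.47% in WT. It was also the lowest of the 8 zones for mean H1, H3K9me2 and SUVH1 cover in each genotype. The order of the zones by mean NRPE1 cover was the same in h1 and WT (Spearman's rho 1.00 over 8 zones, which share their libraries), and rho between NRPE1 cover in h1 and H1 cover in WT was 0.786.

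**Figure D3:**
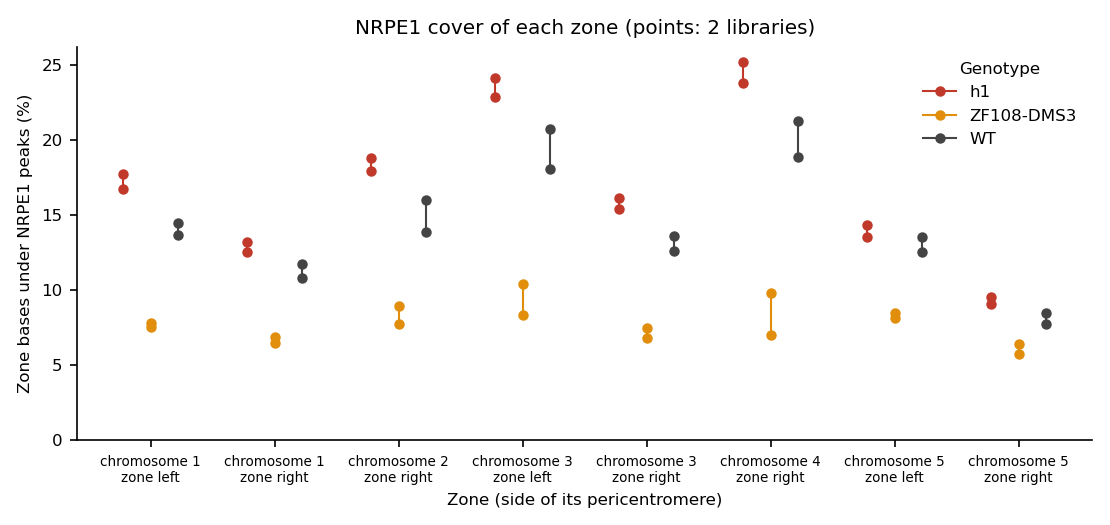
Percent of bases under NRPE1 peaks in each of the 8 zones for h1, ZF108-DMS3 and WT (points are the 2 libraries). The h1 libraries lie above the WT libraries in 7 of 8 zones, the ZF108-DMS3 libraries lie below the WT libraries in all 8, and the 16-17 Mb zone of chromosome 5 is lowest in each genotype.

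To count NRPE1 regions found in 1 genotype alone, the peaks of the h1 and WT lists were merged into regions where they overlap by at least 1 bp. Of 1491 merged regions in the zones, 1096 (73.5%) had a peak in all 4 lists, 88 had a peak in both h1 lists and in neither WT list (gained, 5.90%, against 10.7% of merged regions genome-wide), and 59 had the opposite pattern (lost, 3.96%, against 2.48% genome-wide). In the pericentromeres 1794 of 14020 regions were gained and 196 lost, and in the arms 486 of 6664 were gained and 295 lost. Regions with a peak in all 4 lists made up 46.9% of those in the pericentromeres and 69.7% of those in the arms. These counts require agreement of all 4 lists, so that leaving out an h1 library gave 138 (without replicate 1) or 135 gained regions (without replicate 2), and leaving out a WT library gave 130 (without replicate 1) or 97 lost regions (without replicate 2). The 1096 shared regions held 1217 and 1323 peaks in the h1 lists, against 1654 and 1572 in the WT lists. Only 1 peak was called in 90.1% and 85.1% of them in h1, against 76.7% and 80.7% in WT.

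Most bases gained by NRPE1 in the zones lay in merged regions that also held a WT peak. Bases under peaks in both h1 lists and in neither WT list came to 227 kb, or 2.83% of the zones (5.26% genome-wide), and bases with the opposite pattern to 67.7 kb, or 0.846% (0.554% genome-wide). Counted by merged region, 58.8% of the gained bases lay between WT peaks of a region, 29.4% beyond its outermost WT peak, and 11.8% in gained regions. The merging used the h1 peaks themselves. A wide h1 peak that touched a peak of either WT list thus put all its bases in a region with a WT peak. How far the shares follow from this rule was not tested. By zone, the gained bases ranged from 12.7 kb at 8-9 Mb of chromosome 5 to 46.0 kb at 6-7 Mb of chromosome 4. These base counts were chosen after the peak counts had been seen.

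Pseudogenes held the largest share of the gained bases. Of the gained bases 51.3% lay in pseudogenes and 23.1% in protein-coding genes, whereas pseudogenes make up 5.11% and protein-coding genes 55.5% of zone bases. This was not particular to the zones. In the pericentromeres 53.3% of the gained bases lay in pseudogenes, which make up 28.2% of bases there. In the arms 39.0% did so, where pseudogenes make up 1.98% of bases. Of the lost bases of the zones 1.06% lay in pseudogenes and 8.79% in protein-coding genes. In the zones, H1 peaks of WT covered 28.9% and 37.4% of the gained bases in its 2 libraries, 5.33% and 6.27% of the bases shared by all 4 NRPE1 lists, and 0.183% and 0.0458% of the lost bases. H3K9me2 peaks of WT covered 9.91% and 27.0% of the gained bases and 2.63% and 6.24% of the shared bases, and the SUVH1 lists in h1 covered 17.3% and 11.1% of the gained bases and 45.4% and 49.6% of the shared bases. GC content was 39.1% in the gained bases, 25.7% in the lost bases and 31.2% in the shared bases, with 34.8% over the zones as a whole.

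Seen from the annotation, NRPE1 covered 70.1% and 68.6% of all pseudogene bases of the zones in h1, against 31.2% and 30.0% in WT, 2.26 times as much, with 3.21% and 5.59% in ZF108-DMS3. The h1 and WT libraries were far apart relative to the gaps within them (exact permutation test, p = 0.333, the smallest possible). Protein-coding genes were covered over 4.61% and 4.20% of their bases in h1, against 2.68% and 3.15% in WT. Intergenic bases did not separate the genotypes, at 29.0% and 27.4% in h1 and 27.0% and 30.2% in WT. In the pericentromeres pseudogene and intergenic cover were both higher in h1 than in WT. Pseudogenes there were at 70.5% and 65.0% in h1 against 20.9% and 18.02% in WT. Intergenic bases there were at 58.3% and 54.1% in h1 against 36.7% and 37.4% in WT. The arms resembled the zones, with pseudogenes at 57.1% and 55.6% in h1 against 34.8% and 29.4% in WT. Intergenic bases of the arms overlapped, at 13.8% and 12.9% in h1 and 13.4% and 14.4% in WT. The pseudogene class was looked at after other results of these data were known.

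Pseudogene by pseudogene, 110 of 204 had a larger covered share in both h1 libraries than in both WT libraries, 2 had a smaller share, 56 had no NRPE1 peak in any of the 4 lists and 36 overlapped between genotypes (genome-wide 69.5% of pseudogenes were higher and 0.909% lower). Of the 1882 protein-coding genes, 216 were higher and 72 lower (genome-wide 7.69% and 2.30%). Of all 204, 95 were covered over more than 90% in both h1 libraries, against 15 in both WT libraries. Among the 115 pseudogenes of at least 1 kb, these counts were 60 and 0. No genome-wide share is given here for these counts, and pseudogene cover was also higher in h1 in the pericentromeres and arms. The pseudogenes named next are examples. Apart from AT1G48710, their WT cover lay below the 31.2% and 30.0% of all zone pseudogene bases. AT2G17115, a pseudogene of 4947 bp, was covered over its whole length in both h1 libraries, against 8.07% and 7.72% in WT. AT3G28915 (5080 bp) was wholly covered in both h1 libraries, against 21.5% and 25.0% in WT, and so was AT2G17910 (4035 bp), against 19.1% and 24.2% in WT. At AT1G48710, a copy of the heat-activated retrotransposon family ONSEN, NRPE1 covered the whole gene in both h1 libraries, and all of it in replicate 1 and 77.5% in replicate 2 of WT.

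**Figure D4:**
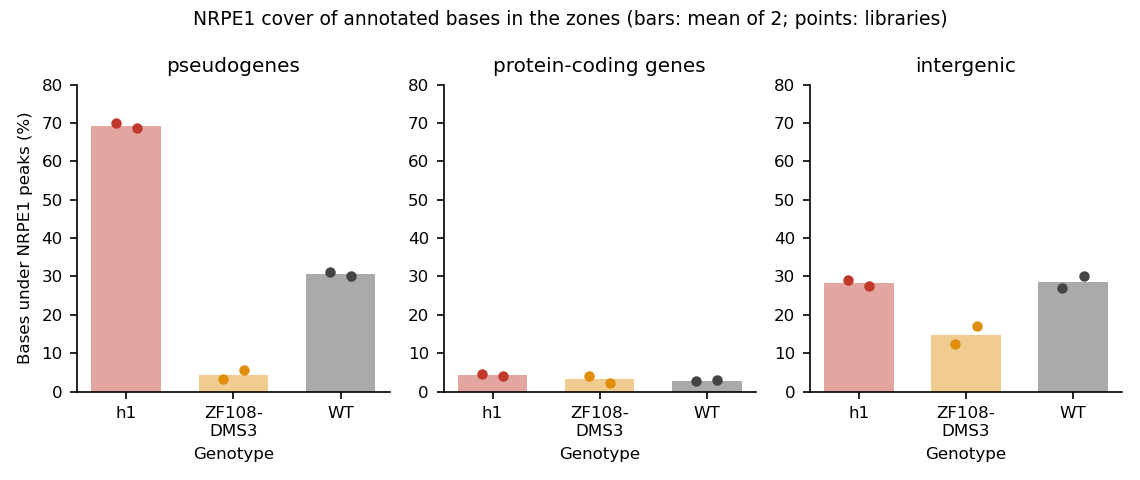
Percent of pseudogene, protein-coding and intergenic bases of the zones under NRPE1 peaks in h1, ZF108-DMS3 and WT (bars are the mean of 2, points the libraries). Pseudogene cover is 70.1% and 68.6% in h1, 3.21% and 5.59% in ZF108-DMS3, and 31.2% and 30.0% in WT, while intergenic cover in h1 overlaps that in WT.

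NRPE1 cover of pseudogenes also differed with the presence of H1. The 96 pseudogenes that had an H1 peak in both WT libraries (291 kb, median 3143.5 bp) were covered by NRPE1 over 84.7% and 83.0% in h1, against 34.8% and 31.7% in WT. The 81 pseudogenes without an H1 peak in either WT library (69.2 kb, median 699 bp) were covered over 36.2% and 35.7% in h1, against 21.3% and 26.8% in WT. H3K9me2 in h1 covered 37.8% and 38.6% of the pseudogenes with H1 peaks, against 0.396% and 0.816% of those without. The groups differ in length as well as in H1, and the part of each in the result was not tested.

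The longest merged NRPE1 blocks of the zones were picked for their length after the widths had been seen, so that long peaks there follow from the choice and their values are a description. Read depth is unknown, and its part in the number of peaks called within a block was not tested. The longest ran over 17594 bp at chr3:17401720-17419313, across the pseudogenes AT3G47260, AT3G47270 and AT3G47280. It was covered over 99.1% and 97.1% by 2 and 3 peaks in h1, over 8.64% and 23.5% by 4 and 12 peaks in ZF108-DMS3, and over 87.7% and 78.2% by 13 and 16 peaks in WT. SUVH1 in h1 covered 98.3% and 95.0% of it, and H1 in WT 41.3% and 42.7%. At chr1:18013082-18021435, which contains AT1G48710 and was picked for its annotation, 1 peak of 8345 and 8351 bp covered the block in the h1 libraries, against 3 and 8 peaks in WT.

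The block at chr5:16698857-16706896 differed in that WT cover was low. It overlaps the pseudogene AT5G41755 and ends of the coding genes AT5G41750, which encodes a TIR-NBS-LRR type immune receptor, and AT5G41760. NRPE1 covered 94.9% and 92.5% of it in h1, 2.33% and 8.84% in ZF108-DMS3, and 24.1% and 28.7% in WT. H1 covered 58.3% and 56.5% of it in WT. H3K9me2 covered 51.3% and 54.0% in h1, within the 14.8% and 61.0% of the WT libraries.

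The 88 gained regions were short and weak in comparison with the shared ones. Part of this follows from the definition, since shared regions join peaks called in all 4 lists and gained regions hold peaks of the h1 lists alone. How large that part is was not tested. Their median width was 325 bp, against 393 bp for the lost and 847.5 bp for the shared regions, and their median fold enrichment was 2.62 and 2.89 in the h1 lists, against 6.03 and 7.199 for the shared regions in the same lists. In the WT lists the lost regions had a median fold enrichment of 2.58 and 3.91. Protein-coding genes overlapped 71.6% of the gained, 16.9% of the lost and 34.5% of the shared regions. H1 peaks of the WT libraries overlapped 23 and 20 of the 88 gained regions, none of the 59 lost regions, and 134 and 146 of the 1096 shared regions. Summits within 500 bp of the start of a protein-coding gene were found in 7.95% and 9.09% of the gained regions (h1 lists) and in 27.1% and 25.4% of the lost regions (WT lists), with 22.3% of all zone positions that close to a start. Outside the zones these shares were 5.96% and 6.32% of the gained and 24.0% in both WT lists for the lost regions.

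GC content differed between these classes. The median region had 40.7% GC among the gained, 24.1% among the lost and 28.9% among the shared regions, and the pooled CG density was 3.38, 1.28 and 2.13 per 100 bp. The values were close in the other parts of the genome, where the pooled GC of gained regions was 40.2% in the zones, 40.4% in the pericentromeres and 40.1% in the arms, and that of lost regions 25.5%, 26.1% and 26.5%. Over all zone peaks of a list the GC content was 33.0% and 33.1% in h1 and 33.3% and 31.2% in ZF108-DMS3, against 30.7% and 30.5% in WT. H1 peaks were richer in GC than any NRPE1 list, at 41.4% in both WT libraries. GC content can also affect amplification and sequencing of ChIP libraries, and its part in these classes was not tested.

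**Figure D5:**
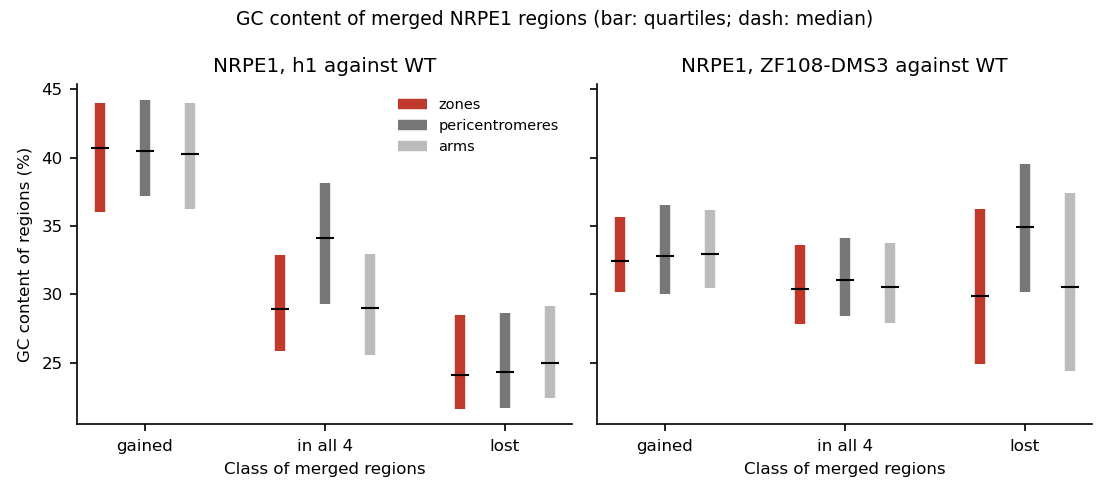
GC content in percent of merged NRPE1 regions that were gained, lost or shared by all 4 lists, in the zones, pericentromeres and arms, for h1 against WT and for ZF108-DMS3 against WT (thick bars are quartiles, dashes medians). In the zones the h1 medians are 40.7% for gained, 24.1% for lost and 28.9% for shared regions.

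Among the gained regions with the highest −log10 p in their lists, the top 2 lay side by side on chromosome 5. The first, at chr5:16600603-16601588, lay wholly in an exon of AT5G41490, with a fold enrichment of 5.93 and 8.42 in the h1 libraries. The second, at chr5:16602458-16603249, overlapped AT5G41494, annotated as a pseudogene of an F-box protein, with 6.89 and 6.94. The third, at chr3:17618833-17619373, spanned 246 bp of exon and 295 bp of intron in ABCA6, an ABC transporter gene, with 6.46 and 6.97. The other top regions were intergenic, at chr1:18239341-18239756, 844 bp from AT1G49310, and at chr4:6970525-6970959, 56 bp from CRK31, which encodes a cysteine-rich receptor-like kinase. None of these had a peak in the ZF108-DMS3 or WT lists of NRPE1, and ABCA6 was the one with H1 peaks in both WT lists.

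The strongest lost regions were intergenic. The region chr4:6879285-6880063 had no peak in h1, and a fold enrichment of 3.32 and 9.98 in ZF108-DMS3 and of 10.2 and 17.1 in WT. The region chr3:17146909-17147782, 42 bp from AT3G46570, had 5.40 and 7.23 in ZF108-DMS3 and 10.8 and 17.2 in WT. The region chr5:8186984-8187621 had 4.10 in replicate 2 of ZF108-DMS3 alone, and 9.98 and 15.6 in WT. No H1 peak of any genotype overlapped these 3 regions.

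Of a list of 46 genes of DNA methylation and silencing, 4 lie in a zone. SDC, an F-box gene with promoter repeats known to be silenced by RdDM, had an NRPE1 peak over its 5′ end with a fold enrichment of 7.87 and 9.52 in h1 and 3.53 in replicate 2 of ZF108-DMS3, against 4.24 and 6.36 in WT. Replicate 1 of ZF108-DMS3 had a peak of 3.05 at the 3′ side of the gene instead. Such values do not compare occupancy between lists. Over the 1096 zone regions shared by the h1 and WT lists, the median fold enrichment was 6.03 and 7.20 in h1 and 4.12 and 6.21 in WT. Downstream of RDR2, the RNA-dependent RNA polymerase that works with Pol IV, both h1 libraries had a peak (chr4:6784760-6785271 in replicate 1) with 5.95 and 5.58, and the ZF108-DMS3 and WT libraries had none. Within 1 kb upstream of DRD1, which encodes a chromatin remodeller needed for Pol V loading, there were 2 and 2 peaks in h1, none in ZF108-DMS3, and 1 and 2 in WT. Near H1.3, a stress-inducible linker histone gene, the h1 and ZF108-DMS3 libraries had no NRPE1 peak within 1 kb, and each WT library had 1.

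In ZF108-DMS3, NRPE1 peaks in the zones were narrow and covered less than in WT. The lists held 1476 and 1687 zone peaks, against 1788 and 1771 in WT, with a median width of 344.5 and 330 bp, against 480 and 531 bp. They covered 7.30% and 8.18% of the zones, against 13.5% and 15.0% in WT (exact permutation test, p = 0.333, the smallest possible), and no zone peak exceeded 2 kb. The lower number of peaks, a difference of -198, came to -22.5 with overlapping libraries when every NRPE1 list was held to the same number of peaks, and to 18.5 more peaks than in WT in the outer 0.5 Mb, whereas width and cover stayed lower in both settings. Width and cover were below both WT libraries in 8 of 8 zones, where 89.7% and 56.9% of all windows of 1 Mb were. The number of peaks was lower in 5 zones and higher in 1, at 16-17 Mb of chromosome 5 (genome-wide 34.5% of windows lower and 60.3% higher). The largest drop in cover was at 6-7 Mb of chromosome 4, with 6.97% and 9.77% in ZF108-DMS3 and 18.9% and 21.3% in WT, and the smallest at 16-17 Mb of chromosome 5.

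NRPE1 regions were both gained and lost in ZF108-DMS3. Of 2688 merged regions, 356 (13.2%, against 12.7% genome-wide) had a peak in both ZF108-DMS3 lists and in neither WT list, and 425 (15.8%, against 15.9% genome-wide) the opposite. In the pericentromeres 379 of 20958 regions were gained and 4716 lost, and in the arms 4533 of 17781 were gained and 1435 lost, so that the share of gained and of lost regions in the zones lay between those of the pericentromeres and the arms. Replicate 2 of ZF108-DMS3 decides these counts, since without it 898 regions were gained and 934 lost, and without either WT library 723 were lost. Of the gained regions 58.4% overlapped a protein-coding gene and 1.12% a pseudogene, against 21.4% and 21.4% of the lost regions. Counted by bases, 32.7% of those gained and 11.8% of those lost were protein-coding, where protein-coding genes make up 55.5% of zone bases. Bases gained came to 151.5 kb, or 1.89% of the zones (1.72% genome-wide), and bases lost to 489 kb, or 6.12% (4.69% genome-wide). Among the 204 pseudogenes 4 had a higher covered share in both ZF108-DMS3 libraries than in both WT libraries and 123 a lower one (genome-wide 1.01% and 54.6%), and among the 1882 protein-coding genes 209 were higher and 234 lower (genome-wide 10.9% and 8.34%). The summit lay within 500 bp of a gene start in 43.8% and 44.9% of the gained regions, with 22.3% of all zone positions that close. Gained regions outside the zones were alike in this, at 43.8% and 43.6%. H1 peaks of WT overlapped 2 and 4 of the 356 gained regions, and 91 and 102 of the 425 lost regions.

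Of the gained regions, those with the highest −log10 p in their lists were the following. The region chr1:18760737-18761514, 2029 bp from ERF3, a repressor of the ethylene response family, had a fold enrichment of 20.6 and 11.9. The region chr5:8987507-8988205 overlapped TINY, of the AP2/ERF family, with 14.7 and 13.3, and chr1:11565048-11565806 overlapped bZIP68 with 17.7 and 10.9. Of the strongest lost regions, chr2:7219888-7220274 in an untranslated exon of AT2G16660 had 3.63 and 5.70 in WT. The lost region chr5:8344771-8345125, 277 bp from CID13, had a peak in both h1 lists, at 5.47 and 7.33, and in both WT lists, at 4.36 and 6.05. The lost region chr1:11089281-11090959 overlapped AT1G31072, a transcribed pseudogene, and had 6.48 and 7.72 in h1 and 4.37 and 6.68 in WT.

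Short words were counted on both strands in windows of the same 151 bp at the summits, after they had been noticed in the data. AAGATG was in 31.2% of the 356 gained windows of the zones, 26.4% of the gained windows elsewhere, 9.65% of the lost windows of the zones and 13.7% of all 52976 zone tiles of that length. AAAAGA was in 43.5%, 43.2%, 23.3% and 27.8%, and AGAGAG, which partly overlaps it in letters, in 22.2%, 26.3%, 10.1% and 12.4% of the same windows. In the windows gained in h1 the shares were 18.2% for the first of these words and 14.8% for each of the others. A match of letters is a description and not a binding site.

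Some regions had a peak in every NRPE1 list. Of 2370 merged NRPE1 regions of the zones over the 6 lists, 426 (17.97%) had a peak in all 6. No genome-wide share is given here for this class, so it is not described as particular to the zones. The strongest, chr5:8404104-8405519, lies 162 bp from AT5G24570 and had a fold enrichment of 17.1 and 21.9 in h1, 16.5 and 11.8 in ZF108-DMS3, and 12.8 and 21.2 in WT. The region chr5:16680750-16683577, which overlaps AT5G41720, had 18.6 and 23.9 in h1, 12.8 and 12.0 in ZF108-DMS3, and 14.3 and 21.2 in WT. Fold enrichment comes from libraries of unknown depth, so these values rank peaks within a list and do not compare occupancy between lists.

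H1 itself showed no separation between genotypes in peak number or cover of the zones. Its lists held 1015 and 972 zone peaks in nrpe1 and 1047 and 1184 in ZF108-DMS3, against 964 and 1227 in WT. The covered share was 4.01% and 4.06% in nrpe1 and 4.10% and 4.83% in ZF108-DMS3, against 3.48% and 4.84% in WT (exact permutation tests, p = 1.00 for nrpe1 and 1.00 for ZF108-DMS3). The WT libraries enclosed both values of the other genotypes. Of 1710 regions merged for nrpe1 and WT, 59 were gained (3.45%, genome-wide 2.68%) and 59 lost (3.45%, genome-wide 3.35%), and of 1835 merged for ZF108-DMS3 and WT, 61 were gained (3.32%, genome-wide 2.96%) and 55 lost (3.00%, genome-wide 3.04%). Pseudogene bases under H1 peaks were 34.1% and 35.2% in nrpe1, 34.4% and 37.8% in ZF108-DMS3, and 29.6% and 37.4% in WT. By pseudogene, 20 of 204 had a higher and 15 a lower covered share in both nrpe1 libraries than in both WT libraries (genome-wide 12.9% and 7.81%), and 22 a higher and 12 a lower one in ZF108-DMS3 (genome-wide 9.73% and 9.09%). Median H1 peak width was 245 and 243 bp in ZF108-DMS3, against 221 and 236 bp in WT, the one of the 3 measures whose libraries did not overlap.

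H3K9me2 was sparse in the zones and lay mainly on pseudogenes. Its lists held 206 and 220 zone peaks in h1, against 171 and 241 in WT, and covered 1.70% and 1.81% in h1, against 0.906% and 2.24% in WT (exact permutation test, p = 1.00). Between 81.7% and 84.2% of these peaks overlapped a pseudogene, and at least 97.3% of them overlapped an NRPE1 peak of each h1 library. Of 222 merged regions, 8 were gained in h1 (3.604%, genome-wide 1.96%) and 9 lost (4.05%, genome-wide 5.84%), counts that moved to between 8 and 43 gained and between 16 and 54 lost when 1 library was left out, the most without h1 replicate 1 and without WT replicate 1. By pseudogene, 15 of 204 had a higher and 6 a lower H3K9me2 share in both h1 libraries than in both WT libraries (genome-wide 3.47% and 9.60%). The widest gained region, chr3:10700815-10703843, lay in exons of AT3G28550, which encodes an extensin-like cell wall protein. H3K9me2 covered 77.2% (replicate 1) and all (replicate 2) of it in h1 and had no peak there in WT, NRPE1 covered 95.8% and 89.6% in h1 and 6.14% in WT replicate 1 alone, and SUVH1 covered 83.8% and 86.5% in h1. H1 covered 34.9% and 56.9% of it in WT. The other named gained regions, at chr1:11899522-11900281 and chr1:18852929-18853460, lay on the pseudogenes AT1G32840 and AT1G50860. The 2 widest lost regions, at chr2:7224284-7227406 and chr2:7227436-7228825, lay on the pseudogene AT2G16670, where 1 NRPE1 peak of 5132 and 5060 bp spanned both of them in the h1 libraries. H3K9me2 had no peak in h1 at either, and covered 55.4% and all of the first and 78.3% and 90.6% of the other in the WT libraries. The third, at chr3:10341510-10342345, lay on the pseudogene AT3G27883, which NRPE1 covered wholly over that stretch in both h1 libraries and over 50.8% and 46.8% in WT.

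Nearly all SUVH1 regions in h1 overlapped NRPE1. The SUVH1 lists held 961 and 874 zone peaks that covered 6.88% and 6.95% of the zones, against 21.3% and 14.9% of the pericentromeres and 2.84% in each library of the arms. Of 531 regions with SUVH1 in both libraries, 519 (97.7%) had NRPE1 in both h1 libraries, whereas 41.0% of the 1266 NRPE1 regions in both h1 libraries had SUVH1 in both. The share of SUVH1 regions with NRPE1 was 96.2% in the pericentromeres and 90.3% in the arms. Counted by single zone peak, 92.0% and 91.5% of SUVH1 replicate 1 overlapped the h1 lists of NRPE1, and 83.9% and 85.0% the WT lists. For SUVH1 replicate 2 these shares were 95.4% and 95.5% for the h1 lists, and 91.0% and 92.4% for the WT lists. The 11 SUVH1 regions of the zones without NRPE1 in h1 lay on protein-coding genes in 9 cases. The strongest were at PSAF, a photosystem I subunit gene (chr1:11214678-11216020, fold enrichment 5.18 and 4.65), at AT5G25280 (chr5:8773853-8776178, 2.92 and 3.05), and at LHCB2.3, which encodes a light-harvesting protein (chr3:10255918-10257113, 4.57 and 4.12).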

How the data were processed

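ChIP-seq peak lists of 18 libraries were analysed, 1 list per library and 2 libraries for each of 9 groups of antibody and genotype. The other 16 samples of the series were not analysed here. Per the study's methods, Bowtie2 2.1.0 placed the reads on TAIR10, and the authors kept those that matched 1 place perfectly. After SAMtools had taken out duplicate reads, MACS2 2.1.1 made the peak lists. The control and settings of the peak calls are not given in the sources used here. The deposited lists give, for each peak, a fold enrichment (a ratio to the caller's background), a −log10 p-value, a −log10 q-value and a summit position, as the authors' peak caller wrote them. The deposited score column, a whole-number form of the −log10 q, was not used. No list holds a peak with q above 0.0499, and read depth is unknown, so no counting intervals are given. Organelle peaks, 105 to 287 in each of 4 lists, were left out.

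Zone membership, merging of peaks that overlap by at least 1 bp, annotation (RefSeq, TAIR10.1), GC content and exact two-sided permutation tests over libraries were computed in Python 3.11.15 with numpy 2.4.6, pandas 2.3.3, scipy 1.17.1 and matplotlib 3.10.9, and the merging step was tested on simulated lists. With 2 libraries per group the smallest possible p is 0.333. Pericentromeres were taken as the Mb between the zones (on chromosomes 2 and 4, from 1 Mb to the zone) and arms as the rest. Background shares count all merged regions, genes or 1 Mb windows of the nuclear genome. Named regions are those with the highest −log10 p percentile within each list, averaged over the libraries with a peak (5 gained in h1, 3 for each other NRPE1 class and for SUVH1), and the 3 widest H3K9me2 regions. Of the named regions, 1 is not reported here. The members and lists were chosen with earlier results of these data known. GC content, 6-letter words, pseudogenes, gained and lost bases, peaks over 2 kb and the longest blocks were added after values had been seen. Alternatives were a −log10 q of at least 3, equal numbers of peaks per list, peaks cut at zone borders, merging within 500 bp, sharing of 0.5 or more of the shorter peak's length, each outer or inner 0.5 Mb alone, a replicate block and leaving out each library.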

Additional observations from a re-analysis of the deposited data

Results flagged for a closer look

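The number of NRPE1 peaks per Mb moved in opposite directions in ZF108-DMS3 in the zones and in the arms. Both ZF108-DMS3 libraries had fewer zone peaks per Mb than both WT libraries, a mean difference of -24.75, whereas in the arms both had more, a mean difference of 59.4. The difference between the zones and the arms was not tested.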

How the results depend on the processing

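Of 316 alternative values for 39 results, 230 were classed as the same, 17 as reversed and 69 as moved. Differences were classed by direction alone, whatever their size, and counts, kb and overlap shares by size. The moved values were mostly counts of gained and lost regions of H1 and of lists with a library left out. The differences of NRPE1 in h1 in peaks, width, cover, peaks over 2 kb, GC content and pseudogene cover kept their direction in every alternative run for them. Leaving out a library gave -359.5 to -264.5 peaks, 39.5 to 97.0 bp of width, 1.97 to 3.41 points of cover and 37.9 to 39.4 points of pseudogene cover in h1, and -303.5 to -92.5 peaks, -193.75 to -142.75 bp and -7.22 to -5.78 points in ZF108-DMS3. The ZF108-DMS3 peak difference reversed to 18.5 in the outer 0.5 Mb. With equal numbers of peaks per list, H1 in nrpe1 reversed to 39.5 peaks, -0.75 bp and 0.284 points of cover. H1 in ZF108-DMS3 reversed to -4.0 peaks in the outer 0.5 Mb, and H3K9me2 width in h1 to -4.0 bp at a −log10 q of at least 3. The causes of these reversals were not tested.

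With a library left out, H1 in nrpe1 ranged over -233.5 to 29.5 peaks, -1.25 to 13.75 bp and -0.804 to 0.563 points (positive peaks and cover without WT replicate 2, negative width without WT replicate 1). H1 in ZF108-DMS3 ranged over -111.5 to 151.5 peaks and -0.378 to 0.989 points, with reversed values of -111.5 peaks and -0.378 points without WT replicate 1 and of -48.5 peaks and -0.0582 points without ZF108-DMS3 replicate 2. H3K9me2 in h1 ranged over -28.0 to 42.0 peaks, -35.75 to 71.25 bp and -0.482 to 0.850 points, reversed without WT replicate 1, and its peak difference was 0.0 without h1 replicate 2.

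Regions gained by NRPE1 in h1 numbered 58 with equal numbers of peaks, 48 in the inner and 40 in the outer 0.5 Mb, and lost regions 34 when merged within 500 bp, 31 in the inner and 28 in the outer 0.5 Mb. For ZF108-DMS3, gained regions numbered 237 when merged within 500 bp, 170 in the inner and 186 in the outer 0.5 Mb, and lost regions 149, 273 and 152. For H3K9me2, lost regions numbered 5 at the stricter q, 4 when merged and 3 in the outer 0.5 Mb, and gained regions 3 when merged and 4 in each of the inner and outer 0.5 Mb. With a library left out, NRPE1 counts ranged over 104 to 138 gained and 69 to 130 lost in h1, and 360 to 898 gained and 446 to 934 lost in ZF108-DMS3, since fewer lists then have to agree. The kb gained ranged over 247.7 to 344.7 and the kb lost over 81.9 to 147.6 in h1, and 153.9 to 405.6 and 502.3 to 805.8 in ZF108-DMS3. The H3K9me2 counts ranged over 8 to 43 gained and 16 to 54 lost. H1 counts ranged over 104 to 282 gained and 110 to 434 lost in nrpe1, and 105 to 386 gained and 95 to 395 lost in ZF108-DMS3.

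Replicate numbers are only names here. With a replicate block the differences stayed the same, for example -312 NRPE1 peaks in h1 and 2.69 points of cover, and the exact sign test of 2 pairs cannot go below p = 0.5. Read depth is unknown, so that fewer peaks and lower depth cannot be told apart for a single list.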
